A study of Mus musculus with 37 samples.

Results

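Polk, Ddb2, Xpc, Rrm2b, Ercc5 and Gadd45a are 6 genes that act in DNA repair or damage tolerance and are grouped here as transcriptional targets of p53. Whether p53 acts on each of them in these mouse cells was not tested. The 6 genes were followed by gene symbol through 3 experiments on mouse jejunal organoids. They are 6 of the 27547 genes in the irradiation experiment, which also has the central data. In that experiment, organoids from Lgr5-EGFP-IRES-CreERT2 mice were left unirradiated or exposed to 6 Gy of X-rays (IR), then cultured for 48 h without treatment or with 100 nM vasoactive intestinal peptide (VIP), a neuropeptide hormone, before live Lgr5-EGFP+ cells were sorted. Each of the 4 groups (no IR untreated, no IR with VIP, IR untreated, IR with VIP) held 1 sample from each of the same 4 mice. The other experiments had no irradiation and 72 h of 100 nM VIP. One used sorted Lgr5-EGFP+ cells from organoids of Lgr5-EGFP-IRES-CreERT2 mice (4 untreated and 4 VIP-treated samples from 4 mice). The other used whole organoids of C57Bl6/J mice (3 untreated and 4 VIP-treated cultures from 4 mice). The mice were adults of 6 to 12 weeks. The Lgr5-EGFP reporter marks stem cells and early progenitors and is known to be mosaic in this strain, and EGFP protein can outlast Lgr5 transcription, so the sorted fraction is not a pure stem cell population.

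p53 is a transcription factor that is stabilised after DNA damage and switches on genes for arrest, death and repair, and in intestinal crypts it is part of the acute response to radiation. The 6 genes serve different routes. Ddb2 and Xpc recognise distorted DNA in nucleotide excision repair, and Ercc5 encodes the XPG endonuclease that cuts the damaged strand on the 3′ side of the lesion. Polk encodes polymerase kappa, which copies past lesions in translesion synthesis. Rrm2b encodes the p53-inducible small subunit of ribonucleotide reductase, which supplies deoxynucleotides outside S phase, and Gadd45a encodes a small stress protein that binds PCNA, Cdk1 and the kinase Map3k4.

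All 6 are protein-coding genes. In GENCODE M21 on GRCm38, Ercc5 lies at chr1:44147744-44181260 on the plus strand. The other 5 lie on the minus strand, Ddb2 at chr2:91211572-91236982, Gadd45a at chr6:67035096-67037457, Xpc at chr6:91489305-91515888, Polk at chr13:96480690-96542579 and Rrm2b at chr15:37923952-37961318. The libraries read the 3′ ends of transcripts, and the 3′ end of Ddb2 overlaps the 3′ end of Acp2 on the opposite strand. Whether the authors' counting used strand is not given in the sources used here, so reads of Ddb2 and Acp2 there may not have been told apart. The 3′ end of Tmem43, on the opposite strand, lies next to that of Xpc without overlapping it (its annotation ends at chr6:91488463). The pseudogene Gm3362 lies inside Rrm2b on the same strand, and the non-coding gene E230016M11Rik overlaps Gadd45a on the opposite strand.

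RefSeq promoters (GRCm38.p6, 250 bases before to 50 after the transcription start) were at hand for only 3 of the 6 genes. These were Ercc5, Polk, with 2 start sites, and Gadd45a, and all 4 windows are shown. The same 3 genes rose after irradiation in at least 1 comparison, but that was not the basis of the choice. The windows were searched on both strands for the p53 consensus half-site of 10 bases, which is in capitals where it occurs. They were also searched for 2 half-sites with 0 to 13 bases between them. Of 32851 mouse promoter windows of the same length, 8.4% held a half-site and 0.0731% held a pair. The Ercc5 window (chr1:44147494-44147793, plus strand) and the upstream Polk window (chr13:96542530-96542829, minus strand) held no exact half-site. The downstream Polk window (chr13:96519138-96519437, minus strand) held 1, starting at base 20 of the window. The Gadd45a window (chr6:67037358-67037657, minus strand) held 1, starting at base 211. None of the 4 windows held a pair. Sites further away or with mismatches were outside this search, and counts of 3′ ends do not show which start was used.
Ercc5 promoter: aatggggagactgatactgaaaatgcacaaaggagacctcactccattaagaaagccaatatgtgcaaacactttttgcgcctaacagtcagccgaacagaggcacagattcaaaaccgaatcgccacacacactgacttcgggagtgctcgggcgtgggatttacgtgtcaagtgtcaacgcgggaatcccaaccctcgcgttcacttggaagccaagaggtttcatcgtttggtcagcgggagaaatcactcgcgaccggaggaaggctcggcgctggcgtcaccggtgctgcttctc
Polk promoter, upstream start: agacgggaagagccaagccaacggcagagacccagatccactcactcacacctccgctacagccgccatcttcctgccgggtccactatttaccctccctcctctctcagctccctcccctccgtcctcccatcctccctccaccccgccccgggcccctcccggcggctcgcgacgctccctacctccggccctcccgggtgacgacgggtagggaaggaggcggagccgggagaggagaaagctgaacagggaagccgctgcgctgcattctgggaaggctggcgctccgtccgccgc
Polk promoter, downstream start: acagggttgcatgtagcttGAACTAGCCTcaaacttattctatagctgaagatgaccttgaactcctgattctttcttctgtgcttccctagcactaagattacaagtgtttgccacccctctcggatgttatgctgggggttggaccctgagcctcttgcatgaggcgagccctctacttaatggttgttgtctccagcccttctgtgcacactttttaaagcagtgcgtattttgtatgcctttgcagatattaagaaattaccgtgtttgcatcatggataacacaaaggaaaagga
Gadd45a promoter: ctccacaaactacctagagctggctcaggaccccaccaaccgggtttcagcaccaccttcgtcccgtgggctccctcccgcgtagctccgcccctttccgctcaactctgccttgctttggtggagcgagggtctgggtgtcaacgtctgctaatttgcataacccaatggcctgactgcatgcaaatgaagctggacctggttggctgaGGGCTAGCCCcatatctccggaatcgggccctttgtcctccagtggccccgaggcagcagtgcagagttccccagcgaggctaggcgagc

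The depth was 1075715 to 1876729 UMIs (unique molecular identifiers, 1 per captured molecule) per sample in the irradiation experiment, 575242 to 1104126 in sorted cells after 72 h and 3722716 to 6330404 in whole organoids. Levels are given as CPM, the UMIs of a gene scaled to a total of 1000000 per sample. A gene was called changed at a Benjamini-Hochberg adjusted p of 0.05 or less, in edgeR's quasi-likelihood test over all genes tested with the mouse as a block. In the irradiation experiment, Cdkn1a, the p53-induced inhibitor of cell cycle kinases, read 287 ± 46.5 (SD, n = 4) CPM without IR and 630 ± 50.7 after IR in untreated cells, and 194 ± 31.5 and 654 ± 33.7 in VIP-treated cells. The irradiated and unirradiated groups were separate under both treatments, so the levels of this gene did not go against the labels. All 8 stem cell markers on the list used, Lgr5 among them, were detected in each sorted group. The summed markers of other cell types also moved. Stem cell markers summed to 3857 to 4933 CPM without IR and 2905 to 3337 after IR in untreated cells, and to 5825 to 6261 and 3572 to 4223 in VIP-treated cells. The lower sums were not shared by all 8 stem cell markers. In untreated cells, 4 of the 8 had log2 fold changes above 0, and only Olfm4 and Smoc2 were called lower. In VIP-treated cells, 2 of the 8 were above 0, and Cdca7, Olfm4 and Smoc2 were called lower. The 7 Paneth cell markers, all detected in each group, summed to 9916 to 14727 and 14843 to 27247 in untreated cells, and to 8433 to 9771 and 14734 to 16827 in VIP-treated cells. The 6 enteroendocrine markers, all detected in each group, summed to 2387 to 3093 and 3395 to 6527 in untreated cells, and to 1554 to 4142 and 4859 to 8729 in VIP-treated cells. Of 7 goblet cell markers, 4 rose after IR in untreated cells and 2 in VIP-treated cells, and of 7 enterocyte markers tested, 2 and 1 rose. Of 17 proliferation genes none was called in untreated cells and Mcm6 fell in VIP-treated cells. Counts were found for 4 of 5 leukocyte markers, which summed to 3.28 to 11.3 CPM without IR and 9.42 to 36.3 after IR in untreated cells, and to 2.25 to 10.4 and 7.19 to 17.1 in VIP-treated cells. Only Cd74 of these had enough counts to test, and it rose after IR in untreated cells (log2 fold change 2.09) and was not called in VIP-treated cells (0.82). The 6 fibroblast and endothelial markers summed to 17.3 to 21.98 CPM without IR and 30.6 to 74.8 after IR in untreated cells, and to 11.6 to 30.7 and 25.9 to 52.7 in VIP-treated cells, with 2 of the collagen and Pdgfra markers at 0 in each group. Vim alone of these was tested and rose after IR under both treatments (1.31 and 1.004). The part of these shifts in the results on the 6 genes was not tested, and in bulk samples fewer cells of a type and less RNA per cell cannot be told apart.

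Irradiation was first examined in untreated Lgr5-EGFP+ cells, to ask which of the repair genes rose with the rest of the p53 response. Of the 6 genes, Ercc5 rose 1.80-fold and none of the others passed the test. Across all 9976 genes tested, 2.87% were called higher and 1.59% lower. The median log2 fold change was 0.15 over the 6 genes and -0.00 over all genes. An unadjusted p under 0.05 was found for 2 of the 6, Ercc5 (higher) and Ddb2 (lower). In the same edgeR test, 1668 of all 9976 genes had such a p.

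Ercc5 read 12.6, 14.2, 12.2 and 11.8 CPM in mice 1 to 4 without IR, and 21.2, 26.6, 27.9 and 16.04 after IR. Every irradiated sample lay above every unirradiated one. Ercc5 thus rose 1.80-fold, with higher values in 4 of 4 mice (log2 fold change 0.85, SE 0.23, adjusted p = 0.030). The call rested on 18 to 48 UMIs per irradiated sample and 18 to 23 per unirradiated sample. The adjusted p became 0.11 without mouse 2, 0.20 without mouse 3, 0.076 without mouse 4, 0.062 without the mouse block and 0.11 by DESeq2's Wald test, with a log2 fold change between 0.75 and 0.93 in these fits. It became 0.17 without the 2 shallowest libraries, the irradiated untreated samples of mice 3 and 4 (log2 fold change 0.82).

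Ddb2 went the other way. It read 17.6, 24.7, 25.02 and 21.0 CPM without IR and 11.2, 18.3, 12.1 and 12.5 after IR in untreated cells. All 4 mice were lower after IR, and mouse 2 after IR lay above mouse 1 without IR, so the groups overlapped. This difference of -0.66 on the log2 scale (SE 0.22) did not pass the test (adjusted p = 0.091). Acp2, whose 3′ end overlaps that of Ddb2, differed by 0.32 on the log2 scale (SE 0.26, adjusted p = 0.59).

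The other 4 genes did not differ beyond their error in untreated cells. Polk read 15.1, 11.7, 6.67 and 8.52 CPM without IR and 9.999, 22.2, 7.44 and 11.6 after IR, so that mouse 2 alone stood clearly higher. Its log2 fold change was 0.29, with a 95% interval of -0.29 to 0.87 (adjusted p = 0.70), and it was -0.04 without mouse 2. Xpc, with 7.87 to 16.3 CPM without IR and 12.4 to 17.2 after IR, had a log2 fold change of 0.26 (-0.23 to 0.76). Its neighbour Tmem43 rose in the same comparison (0.77, SE 0.21, adjusted p = 0.038), and whether reads of Tmem43 were counted for Xpc was not tested. Gadd45a stayed near its starting level, with 71.6, 63.5, 63.9 and 66.2 CPM without IR and 58.2, 74.2, 75.3 and 64.2 after IR. Its interval was the narrowest of the 6, -0.19 to 0.27 on the log2 scale, and a rise above 1.21-fold lay outside it. Rrm2b was at 2 to 11 UMIs per sample in these 2 groups, and its interval of -1.05 to 1.03 reached past -1 and 1 on the log2 scale.

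**Figure D1:**
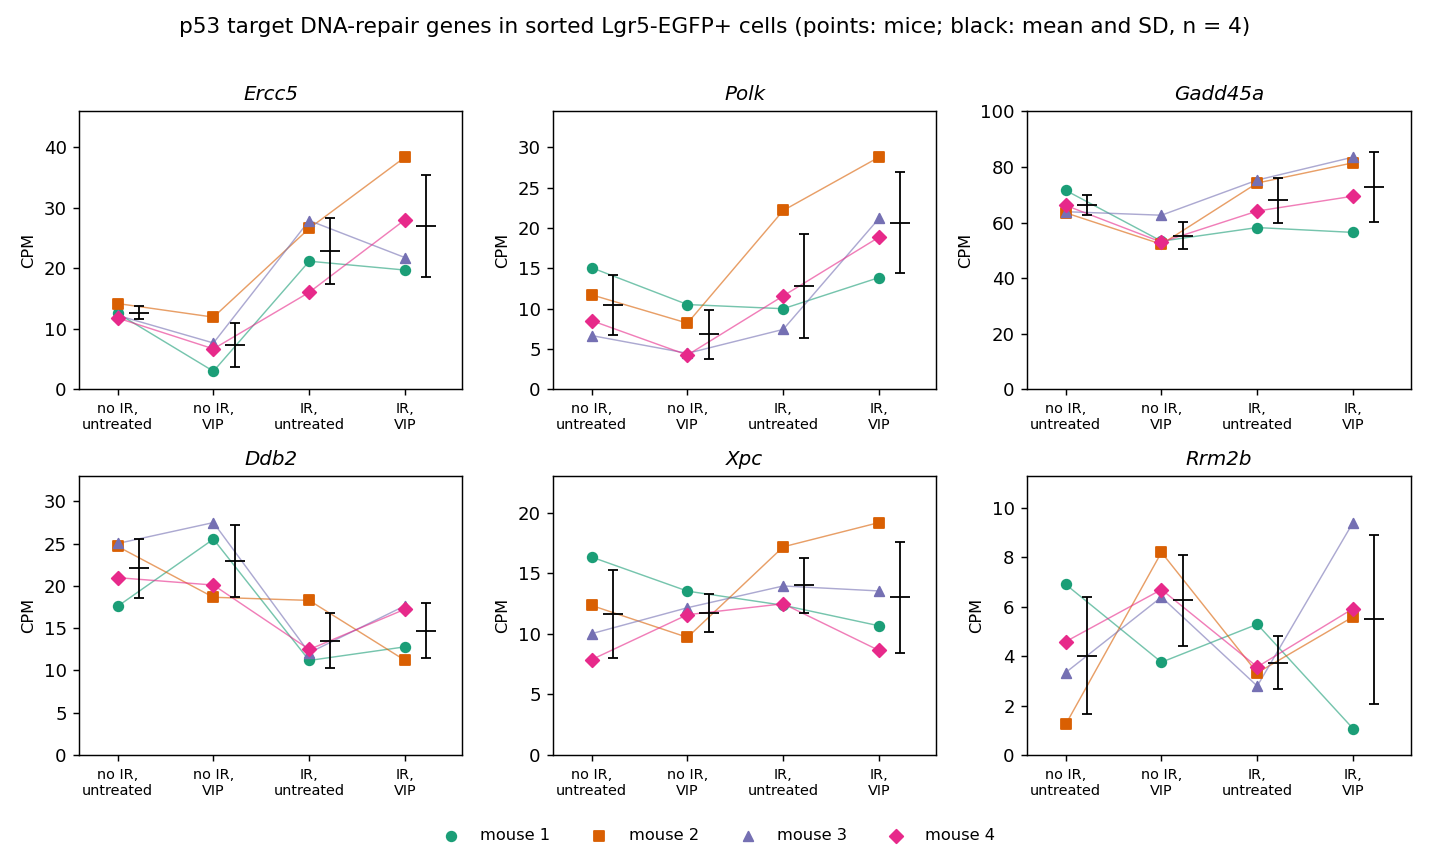
Levels of the 6 genes in CPM (vertical axis, from 0) in the 4 groups of sorted Lgr5-EGFP+ cells, with 1 point per mouse joined by lines and the mean with SD in black (n = 4). Ercc5 is separate between irradiated and unirradiated samples under both treatments, Polk under VIP only, and Ddb2 is lower after irradiation in each mouse.

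In VIP-treated cells, the same 6 Gy was followed by a rise of 3 of the 6 genes, Ercc5, Polk and Gadd45a. Ercc5 and Polk rose more than 3-fold, while Gadd45a rose 1.30-fold and stood at the edge of the threshold. Over all genes, 4.32% were called higher and 3.46% lower in this comparison, with a median log2 fold change of 0.00 against 0.23 over the 6. An unadjusted p under 0.05 was found for 4 of the 6, the 3 called genes and Ddb2. In the same edgeR test, 2167 of all 9976 genes had such a p.

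Ercc5 read 3.00, 11.9, 7.67 and 6.70 CPM without IR and 19.7, 38.4, 21.8 and 28.02 after IR under VIP. The lowest irradiated sample lay above the highest unirradiated one. Ercc5 rose 3.61-fold, in 4 of 4 mice (log2 fold change 1.85, SE 0.25, adjusted p = 1.4e-05). The call held in all 11 alternative fits that gave a value, with log2 fold changes of 1.75 to 1.98.

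Polk read 10.5, 8.21, 4.48 and 4.26 CPM without IR and 13.9, 28.8, 21.2 and 18.9 after IR. These groups were separate too, although mouse 1 moved by 1.32-fold and the other three mice by 3.51- to 4.73-fold. The rise was 3.02-fold and seen in 4 of 4 mice (log2 fold change 1.59, SE 0.30, adjusted p = 0.00096). Polk was called in the same 11 alternatives, with a log2 fold change of 2.04 without mouse 1 and 1.41 to 1.52 without any of the other mice.

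Gadd45a read 53.3, 52.2, 62.7 and 52.99 CPM without IR and 56.5, 81.5, 83.6 and 69.5 after IR. It was higher in 4 of 4 mice, and the irradiated sample of mouse 1 lay below the unirradiated sample of mouse 3. On the log2 scale the rise was 0.38 (SE 0.12, adjusted p = 0.0498). This call was lost without mouse 2 (adjusted p = 0.26), without mouse 3 (0.16) or without mouse 4 (0.19), without the mouse block (0.077), with DESeq2 (0.19), with RLE size factors (0.0501), with all genes that had any count (0.14) and without the 2 shallowest libraries (0.057). Its size stayed between 0.30 and 0.48 in all 12 alternatives.

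Ddb2 was again lower in every mouse under VIP, with 25.5, 18.7, 27.5 and 20.1 CPM without IR and 12.8, 11.2, 17.7 and 17.2 after IR, and here the groups were separate. It differed by -0.62 on the log2 scale (SE 0.21, adjusted p = 0.071), and none of 12 alternatives brought it to the threshold in either irradiation comparison. Acp2 differed by 0.04 (SE 0.25) in the same test. Xpc (9.70 to 13.5 CPM without IR, 8.62 to 19.2 after IR) had a log2 fold change of 0.08 (-0.42 to 0.58), and Tmem43 one of 0.22 (adjusted p = 0.60). Rrm2b (3.76 to 8.21 without IR, 1.07 to 9.41 after IR) had one of -0.23 (-1.10 to 0.64).

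The difference between the irradiation effects with and without VIP was tested directly, as the interaction of VIP and irradiation. None of the 6 genes and 0% of the 9976 genes in either direction passed. In edgeR's test, 634 genes had an unadjusted p under 0.05, and DESeq2 called none. Polk and Ercc5 were the 2 members at an unadjusted p under 0.05. For Polk the irradiation effect was larger under VIP by 1.30 on the log2 scale (SE 0.43, 95% interval 0.47 to 2.14, adjusted p = 0.69), and for Ercc5 by 1.003 (SE 0.34, interval 0.33 to 1.68, adjusted p = 0.69). Both differences had the same direction in 4 of 4 mice. Gadd45a followed with 0.34 (interval 0.01 to 0.66, unadjusted p = 0.054 in edgeR's test, adjusted p = 0.79), also in 4 of 4 mice. Ddb2 (0.04), Xpc (-0.18) and Rrm2b (-0.22) had intervals that spanned 0.

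**Figure D2:**
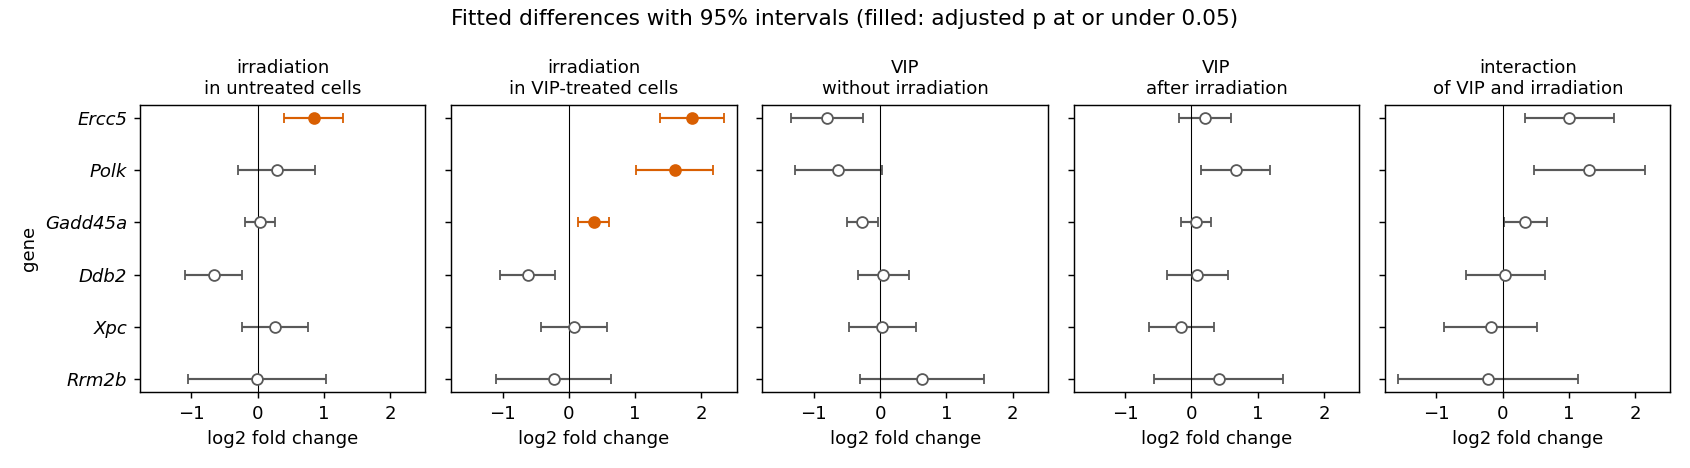
Fitted log2 fold changes of the 6 genes (horizontal axis) with 95% intervals in the 4 comparisons of sorted Lgr5-EGFP+ cells and in their interaction. Filled points mark the 4 calls, Ercc5 in untreated cells and Ercc5, Polk and Gadd45a in VIP-treated cells, and the VIP and interaction panels hold no filled point.

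The effect of VIP itself was then taken without and after irradiation. These comparisons share samples with the irradiation comparisons, so their values are not independent of those above. Without irradiation, none of the 6 genes passed edgeR's test, where 0.481% of all genes were called higher and 0.261% lower. An unadjusted p under 0.05 was found for 2 of the 6 and for 1237 of all 9976 genes in edgeR's test. DESeq2 gave no adjusted p for any of the 6 in this comparison, so it could not call them. Ercc5 was lower with VIP in 4 of 4 mice (7.33 ± 3.67 against 12.7 ± 1.04 CPM, SD, n = 4). The difference was -0.80 on the log2 scale (SE 0.28, adjusted p = 0.20), and the highest VIP-treated sample, 11.9 in mouse 2, lay just above the lowest untreated one, 11.8 in mouse 4. Gadd45a was lower with VIP in 4 of 4 mice as well, with the groups separate (55.3 ± 4.93 against 66.3 ± 3.72). The difference was -0.27 (SE 0.12, adjusted p = 0.36). Polk was lower in 4 of 4 mice with overlapping groups (6.87 ± 3.03 against 10.5 ± 3.70), by -0.63 (SE 0.33, adjusted p = 0.46). For Ddb2, Xpc and Rrm2b the log2 fold changes were 0.05, 0.03 and 0.63, with adjusted p values of 0.96, 0.98 and 0.65. The widest interval was that of Rrm2b, -0.30 to 1.56.

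After irradiation, the call rate for VIP over all genes was 0.13% higher and 0.0902% lower, and none of the 6 passed in edgeR or DESeq2. In edgeR's test, 574 of all 9976 genes had an unadjusted p under 0.05, and Polk was the 1 of the 6 among them. It was higher with VIP in 4 of 4 mice (20.7 ± 6.21 against 12.8 ± 6.47 CPM, n = 4), by 0.67 on the log2 scale (SE 0.26, adjusted p = 0.69). The groups overlapped. Ercc5 was close to its level without VIP, at 27.0 ± 8.38 against 22.9 ± 5.43 (log2 fold change 0.20, interval -0.19 to 0.59). Gadd45a read 72.8 ± 12.5 against 68.0 ± 8.22, with a narrow interval of -0.16 to 0.29. The log2 fold changes of Ddb2, Xpc and Rrm2b were 0.09, -0.15 and 0.41.

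The other genes of the repair routes and of the p53 pathway were set beside the 6 from lists of known members. These lists were chosen with earlier results of these data known, so the contrast between them is a description. Of 24 tested p53 pathway genes outside repair, 15 rose and none fell after irradiation in untreated cells, and 17 rose and none fell in VIP-treated cells. Their median log2 fold changes were 0.85 and 0.97. The largest statistical support in untreated cells was for Cdkn1a (log2 fold change 1.15, SE 0.10, adjusted p = 6.1e-08), for Phlda3, an inhibitor of Akt signalling (1.34, SE 0.12, adjusted p = 1.5e-07), and for Gtse1, a G2 and S phase regulator of p53 (1.14, SE 0.12, adjusted p = 2.6e-06). Mdm2, the ubiquitin ligase that limits p53, rose from 23.5 ± 1.25 to 57.1 ± 21.5 CPM in untreated cells and from 17.6 ± 0.956 to 60.0 ± 11.1 in VIP-treated cells. Trp53, which encodes p53 itself, differed by -0.26 (adjusted p = 0.14) and -0.28 (adjusted p = 0.064). Among the 6 repair genes, the rises of Ercc5 and Polk under VIP (1.85 and 1.59) had the size of those of Cdkn1a (1.75) and Mdm2 (1.76) in the same comparison, and Gadd45a, Xpc, Rrm2b and Ddb2 lay below the median of the p53 pathway list.

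The repair lists themselves held few changes, with median log2 fold changes of -0.02 and 0.01 for nucleotide excision repair in untreated and VIP-treated cells, 0.11 and 0.08 for translesion synthesis, -0.05 and -0.06 for deoxynucleotide supply, -0.07 and -0.02 for the Gadd45 family and its partners, and -0.06 and -0.12 for double-strand break repair. Of 35 other genes of nucleotide excision repair tested, none passed in untreated cells. In edgeR's test, 1668 of all 9976 genes had an unadjusted p under 0.05 there, among them 3 of the 35. All 3 were lower: Gtf2h4 of the TFIIH complex (log2 fold change -0.39, adjusted p = 0.078), its kinase Cdk7 (-0.33, adjusted p = 0.093) and the damage verification factor Xpa (-0.46, adjusted p = 0.16). In VIP-treated cells, 1 of the 35 rose, Gtf2h5, the smallest TFIIH subunit (0.25, SE 0.07, adjusted p = 0.033). Over all genes, 4.32% were called higher in VIP-treated cells and 2.87% in untreated cells. Of 10 other genes of translesion synthesis, Rev1, the scaffold to which the other translesion polymerases bind, rose in untreated cells from 11.8 ± 3.79 to 23.996 ± 4.17 CPM (log2 fold change 1.03, SE 0.24, adjusted p = 0.011). Under VIP, Rev1 differed by 0.52 (SE 0.23, adjusted p = 0.19), and the difference between these effects did not pass (-0.51, adjusted p = 0.89). The next genes of this list in untreated cells were Mad2l2, a subunit of polymerase zeta (0.40, adjusted p = 0.11), and the deubiquitinase Usp1 (0.11, adjusted p = 0.71).

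Among 15 other genes of deoxynucleotide supply, Rrm2, the S phase counterpart of Rrm2b, rose in untreated cells by 0.30 on the log2 scale (SE 0.07, adjusted p = 0.014). Its level went from 226 ± 14.1 to 276 ± 17.5 CPM, and under VIP its log2 fold change was 0.14 (adjusted p = 0.28). The thymidine kinase gene Tk1 fell in VIP-treated cells (-0.33, adjusted p = 0.026), where its value in untreated cells was -0.24 (adjusted p = 0.17), and Dguok, the mitochondrial deoxyguanosine kinase gene, read -0.42 and -0.40 without passing in either. None of the 8 genes of the Gadd45 family and its partners passed in either comparison. Gadd45b had log2 fold changes of -0.36 and 0.16 and Gadd45g of 0.32 and 0.32, with adjusted p between 0.28 and 0.82. Of 28 genes of double-strand break repair, none passed in untreated cells, where the smallest p belonged to Xrcc3 (-0.52, adjusted p = 0.21), Xrcc6 (-0.31, adjusted p = 0.22) and Mdc1 (0.47, adjusted p = 0.35). In VIP-treated cells 1 fell, Rad54l, a motor protein of homologous recombination (-0.59, adjusted p = 0.037). Over all genes, 3.46% were called lower and 4.32% higher in VIP-treated cells, and 1.59% lower and 2.87% higher in untreated cells.

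**Figure D3:**
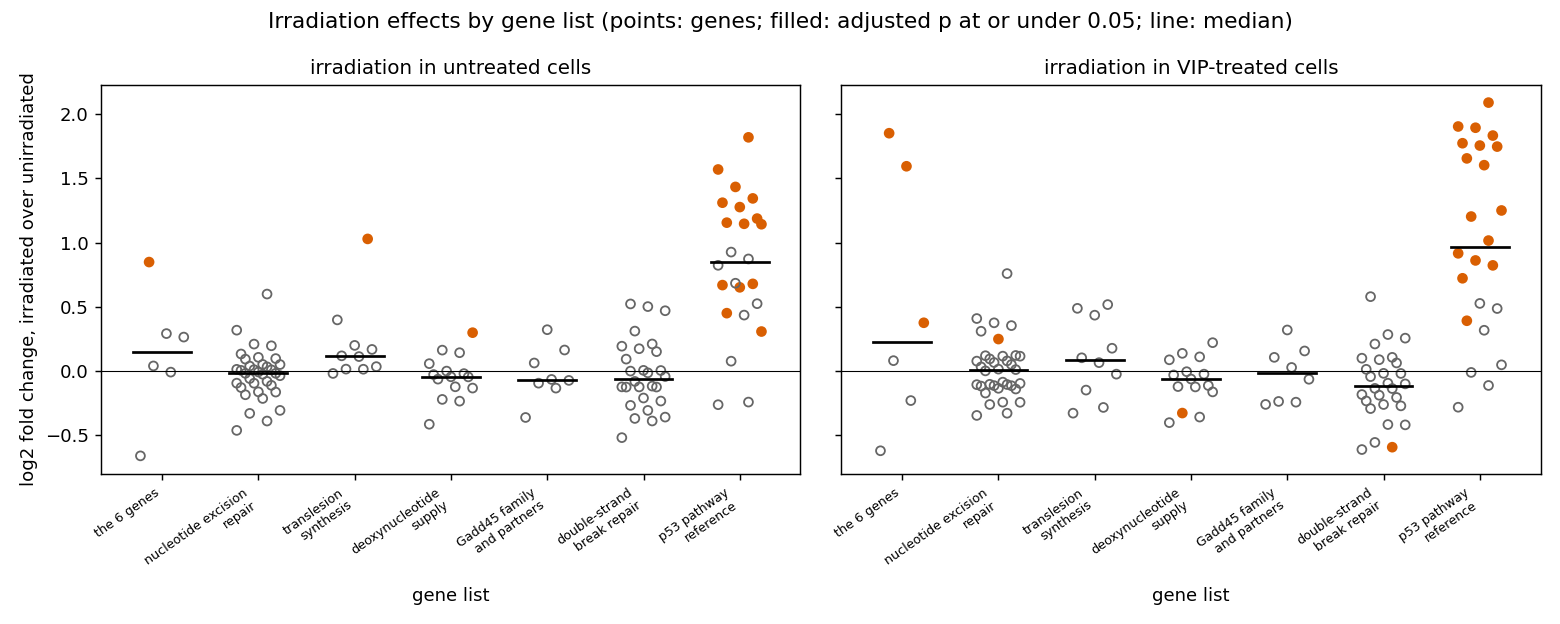
Log2 fold changes after irradiation (vertical axis) in untreated and VIP-treated Lgr5-EGFP+ cells, with 1 point per tested gene in each list, filled where the adjusted p was 0.05 or less and with the list's median as a line. The p53 pathway list is centred at 0.85 and 0.97, the repair lists lie near 0, and the 6 genes spread from Ddb2, lower without a call, to Ercc5, called higher in both panels.

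Under VIP without irradiation, 2 of the 24 p53 pathway genes fell, Cdkn1a (log2 fold change -0.57, adjusted p = 0.0050) and the apoptosis gene Bbc3 (-0.61, adjusted p = 0.032), and none rose. Over all genes, 0.261% were called lower and 0.481% higher. The median of the 24 was -0.14, with 5 of them above 0. An unadjusted p under 0.05 in edgeR's test was found for 8 of the 24 and for 1237 of all 9976 genes. In the same comparison the enterocyte markers Fabp1 and Fabp2 fell, and the stem cell marker Olfm4 and the replication gene Mcm3 rose. All 7 Paneth cell markers had values below 0. In edgeR's test 5 of them had an unadjusted p under 0.05, as had 1237 of all 9976 genes, and none was called. The part of these shifts in the values of Cdkn1a and Bbc3 was not tested. No gene of the 5 repair lists passed for VIP with or without irradiation. After irradiation and in the interaction, none of the p53 pathway genes passed. In the interaction, 18 of the 24 had values above 0, with a median of 0.18. An unadjusted p under 0.05 in edgeR's test was found for 5 of the 24 and for 634 of all 9976 genes. The irradiation effect was larger under VIP by 0.60 for Cdkn1a (SE 0.14, adjusted p = 0.54) and by 0.58 for Bbc3 (SE 0.18, adjusted p = 0.68). Both had this direction in 4 of 4 mice.

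The 16 sorted samples were also used to describe which genes varied most like each of the 6, by Pearson's correlation of log2 levels with the mean of each mouse removed, among 9975 other genes. The points share mice and libraries, and these values carry no test. Ercc5 was nearest to Bex2 (r = 0.96), Bloc1s2 (0.94) and Scmh1 (0.93), and Polk to Slmap (0.93), Kif1c (0.92) and Cstb (0.89). Gadd45a was nearest to Ankfy1 (0.89), Apol7a (0.89) and Etl4 (0.87). The nearest genes to Ddb2 were Trappc6a (0.94), Rpl10a-ps1 (0.93) and Mbd3 (0.92), to Xpc they were Spag9 (0.89), Golga4 (0.88) and Arhgap8 (0.87), and to Rrm2b they were Sertad2 (0.86), Fam114a1 (0.85) and Ahsa2 (0.78). Among the 6 themselves, Polk and Gadd45a varied most alike (r = 0.86), followed by Ercc5 with Gadd45a (0.69) and with Polk (0.68). Ddb2 and Ercc5 ran opposite to each other (-0.84). Rrm2b, the gene with the fewest UMIs, stayed between -0.11 and 0.15 with each of the others.

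VIP for 72 h in sorted Lgr5-EGFP+ cells without irradiation left little to test. Only Gadd45a had enough UMIs for edgeR's filter. It read 28.7, 39.3, 70.7 and 27.0 CPM in untreated samples of mice 1 to 4 and 22.6, 40.0, 46.0 and 25.3 with VIP. With 1 of 4 mice higher, VIP-treated samples differed by -0.32 on the log2 scale (SE 0.25, adjusted p = 0.94). In this comparison 0.059% of 6778 genes were called higher and 0.0295% lower. The other 5 genes had 0 to 14 UMIs per sample. Summed over the 4 mice, untreated and VIP-treated samples held 8 and 9 UMIs of Polk, 31 and 33 of Ddb2, 15 and 18 of Xpc, 12 and 6 of Rrm2b, and 12 and 15 of Ercc5. No difference was detected in these 5 genes. Fitted without the filter, their log2 fold changes ran from -1.08 (SE 0.94) for Rrm2b to 0.14 (SE 0.67) for Ercc5, each with an adjusted p of 0.997.

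In whole organoids, which were not sorted and had the deepest libraries, all 6 genes were tested and none was called after 72 h of VIP, in edgeR (0 at an unadjusted p under 0.05) or DESeq2. Across 12727 genes, 3.72% were called higher and 1.1% lower, and 2090 had an unadjusted p under 0.05 in edgeR's test. Mouse 4 had no untreated culture, so with the mouse as a block its VIP-treated culture does not enter the fitted differences. Ercc5 read 13.9, 14.7 and 4.57 CPM in untreated cultures of mice 1 to 3 and 11.5, 12.5, 12.2 and 8.76 with VIP in mice 1 to 4. The untreated culture of mouse 3, with 17 UMIs from its 1 library, stood apart, and the log2 fold change of 0.13 (SE 0.25) became -0.23 without mouse 3. Polk showed the same culture low, with 14.9, 16.7 and 5.10 untreated and 13.9, 13.6, 8.21 and 9.49 with VIP (log2 fold change -0.01, SE 0.20).

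Gadd45a read 67.4, 64.5 and 61.8 CPM untreated and 79.5, 82.9, 58.4 and 78.9 with VIP. Mice 1 and 2 were higher with VIP and mouse 3 lower. The fitted log2 difference was 0.18 (SE 0.12, adjusted p = 0.51). Without mouse 3 it was 0.32 and passed the test (adjusted p = 0.023), on the 2 mice that then remained with both treatments. Ddb2 was lower with VIP in 3 of 3 mice by -0.20 (SE 0.17, adjusted p = 0.65), with 11.4 to 14.0 CPM untreated and 10.5 to 13.1 with VIP, so that the groups overlapped. Xpc (17.6 ± 6.10, n = 3, against 16.6 ± 4.53, n = 4) and Rrm2b (5.35 ± 1.08 against 4.50 ± 0.846) had log2 fold changes of -0.11 and -0.31, with intervals of -0.41 to 0.19 and -0.86 to 0.24.

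**Figure D4:**
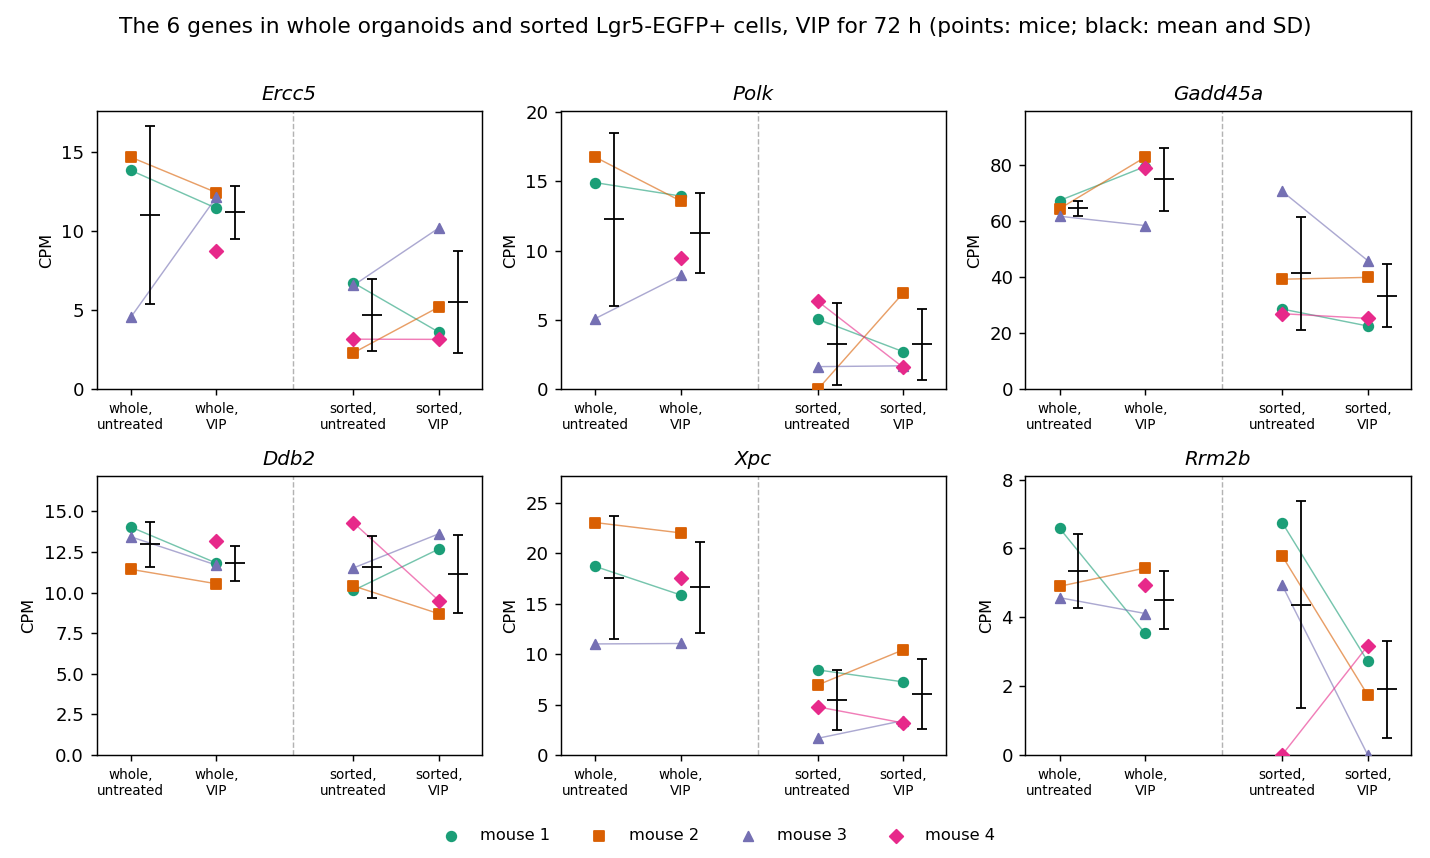
Levels of the 6 genes in CPM (vertical axis, from 0) in whole organoids (left of the dashed line) and sorted Lgr5-EGFP+ cells (right) without and with 72 h of VIP, with 1 point per mouse and the mean with SD in black. Untreated and VIP-treated points overlap for each gene, and the low untreated points of Ercc5 and Polk in whole organoids are mouse 3.

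Among the related lists in whole organoids, the p53 pathway genes Cdkn1a (log2 fold change 0.58, SE 0.12, adjusted p = 0.0093) and Plk2, a stress kinase (0.68, SE 0.16, adjusted p = 0.024), rose with VIP, and so did Gadd45b, the stress-inducible relative of Gadd45a (0.64, SE 0.17, adjusted p = 0.049). These 3 were each higher in 3 of 3 mice, with overlapping groups. Bbc3 was lower in 3 of 3 mice (-0.50, SE 0.16, adjusted p = 0.10), also with overlapping groups. Of the 24 p53 pathway genes, 17 had log2 fold changes above 0. Gadd45g differed by 0.31 (adjusted p = 0.46) and Mdm2 by 0.28 (adjusted p = 0.27). No other gene of the 5 repair lists passed there, and none passed in sorted cells after 72 h. Cdkn1a, which fell with VIP in the unirradiated sorted cells of the irradiation experiment, read 105 ± 20.6 against 80.4 ± 22.6 CPM in sorted cells after 72 h (log2 fold change -0.44, SE 0.19, adjusted p = 0.88).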

How the data were processed

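Per the paper's methods and the labels, the authors tagged the 3′ ends of transcripts with a sample barcode and a UMI during reverse transcription, aligned the reads to GRCm38 with GENCODE M25 and used version 1.0 of the Drop-seq pipeline to count UMIs. Each deposited table gives raw counts by gene, unscaled. Technical libraries of a whole-organoid culture were summed. Groups came from the labels, and samples were paired by the organoid line, 1 per mouse, in the labels. Deviations from the group means correlated across genes at -0.03 to 0.16 between samples of the same mouse in the irradiation experiment.

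Counts were tested with edgeR 4.0.16 in R 4.3.3 (TMM, filterByExpr by group, quasi-likelihood test, block for the mouse). Benjamini-Hochberg adjustment was made over all genes tested, with a threshold of 0.05. All 16 sorted samples of the irradiation experiment entered 1 fit. Intervals are normal 95% intervals of the log2 fold change. Alternatives were DESeq2 1.42.0, RLE factors, library size only, other count filters, no mouse block, leaving out each mouse, the 2 groups compared only, and, for whole organoids, 1 technical library or none of the second library of VIP-treated mouse 3. Leaving out the 2 shallowest irradiated untreated libraries was chosen after seeing the data.

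The 6 genes and all lists were chosen with earlier results of these data known. Named besides the 6 were, for each list, the 3 genes with the smallest p after irradiation of untreated cells and up to 3 that passed in another comparison, with Cdkn1a, Mdm2, Trp53, Rrm2, Gadd45b and Gadd45g. Levels were normalized within each experiment and were not compared between experiments. Of the gene symbols, 96.9% to 97.2% were found in GENCODE M21, from which positions were taken.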

Additional observations from a re-analysis of the deposited data

Results flagged for a closer look

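Polk was lower with VIP in 4 of 4 mice without irradiation (log2 fold change -0.63) and higher with VIP in 4 of 4 mice after irradiation (0.67). The difference was tested as an interaction and did not pass after adjustment over all genes (1.30, SE 0.43, adjusted p = 0.69). The 2 effects have no sample in common, but the samples came from the same mice.

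Of 42 groups of 4 samples examined over the 6 genes, 2 held a sample far from the others, where chance flags about 1 in 20. Both concern Gadd45a in mouse 3 of its experiment. In unirradiated VIP-treated Lgr5-EGFP+ cells, mouse 3 read 62.7 CPM and the other three 52.2 to 53.3. In VIP-treated whole organoids, mouse 3 read 58.4 and the others 78.9 to 82.9. The mice of the 2 experiments are different animals.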

How the results depend on the processing

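There were 419 refits of single differences of the 6 genes. Of these, 381 kept their direction with no change of call counted, 14 lost the call and 1 gained it. Another 23 changed sign, none of these with a call in either fit. The 381 include the DESeq2 refits for VIP without irradiation, which had no adjusted p, so their side of the threshold is unknown.

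After irradiation of untreated cells, the number of the 6 called went from 1 to 0 with DESeq2, without the replicate block, with at least 10 counts in every sample (which removed Ercc5) and without the 2 shallowest libraries, and was 0 to 1 on leaving out each mouse. In VIP-treated cells it went from 3 to 1 with at least 10 counts in every sample, which left 3 of the 6 genes, and was 2 to 3 on leaving out each mouse. In whole organoids it was 0 to 1 on leaving out each mouse. The cause of the other changes was not tested. Without the replicate block Gadd45a also lost its call in VIP-treated cells, where 2 of the 6 were then called, and apart from Ercc5 in untreated cells no other call among the 6 changed.

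Without the 2 shallowest libraries, Rrm2b after irradiation of untreated cells read 0.34, and Ddb2 read -0.092 for VIP after irradiation and -0.13 for the interaction. Polk read 0.038 in whole organoids with DESeq2. On leaving out each mouse, the log2 fold changes that changed sign ran over these ranges. After irradiation of untreated cells they were -0.027 to 0.16 for Gadd45a, -0.037 to 0.65 for Polk and -0.21 to 0.14 for Rrm2b, and in VIP-treated cells -0.20 to 0.24 for Xpc. For VIP without irradiation they were -0.10 to 0.19 for Ddb2 and -0.11 to 0.16 for Xpc, and after irradiation -0.031 to 0.37 for Ddb2 and -0.080 to 1.03 for Rrm2b. In the interaction they were -0.13 to 0.19 for Ddb2, -0.62 to 0.12 for Rrm2b and -0.39 to 0.070 for Xpc, and in whole organoids -0.23 to 0.40 for Ercc5 and -0.18 to 0.17 for Polk.

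The number of all genes called ranged from 168 to 643 (445 in the report) for irradiation of untreated cells, 426 to 872 (776) in VIP-treated cells, 32 to 184 (74) for VIP without irradiation, 5 to 110 (22) after it, 0 to 34 (0) for the interaction, 1 to 17 (6) in sorted cells after 72 h and 99 to 1668 (614) in whole organoids.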
